A study of Homo sapiens with 9 samples.

Results

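Long non-coding RNAs (lncRNAs) are long transcripts that are not annotated as encoding a protein. The 293 genes described here were selected on their measured level: they carry the GENCODE gene type lncRNA and averaged at least 5 CPM (counts scaled to the library total) over 9 RNA-sequencing libraries of an ovarian cancer cell line. They are 293 of 16780 lncRNA genes in a count table of 60649 gene identifiers, and 9500 of those lncRNA genes had a count in any library. All 293 passed the filter on low counts and were tested. Just inside the limit stood PARTICL at 5.004, FOXD2-AS1 at 5.034 and SNAI3-AS1 at 5.042 CPM, and just outside it PDXDC2P-NPIPB14P at 4.973, TPT1-AS1 at 4.963 and HEIH at 4.960 CPM. Since the mean was taken over all 9 libraries, 28 of the 293 fell below 5 CPM in the mean of at least 1 group. Among them are CRNDE, SNAI3-AS1, LOXL1-AS1, ENSG00000205890, ENSG00000261578 and LINC00707, whose differences are given below. These are members through the groups where they were higher, so their differences are not independent of the selection.

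The study examined METTL3, the catalytic subunit of the complex that writes N6-methyladenosine (m6A) on RNA, in OVCAR5, an established human epithelial ovarian cancer cell line grown in RPMI-1640 medium. The library titles gave 3 groups, NC, SM2 and SM4, with 3 libraries each. Lentiviral transduction followed by puromycin selection gave stable populations, from which RNA was taken. SM2 and SM4 are described as METTL3 knockdowns and NC as the control, which the series text calls parental and the study's methods describe as carrying a control hairpin. The labels do not tie SM2 or SM4 to either of the hairpins of the study. For the SM4 libraries the source field names other OVCAR lines, while the cell line field reads OVCAR5 throughout. Nothing in the labels says that the replicates came from separate cultures, so p-values measure the spread between these libraries, which may be technical.

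METTL3 was measured first as a check of the labels. Levels below are CPM scaled with edgeR's normalization factors, and differences are log2 values ± standard error from its quasi-likelihood test, with p adjusted by Benjamini-Hochberg over 19674 genes. Where a pair of differences is given with no group, SM2 against NC comes first and SM4 against NC second. METTL3 stood at 36.2, 34.4 and 36.6 CPM in the NC libraries, 37.1, 39.8 and 40.0 CPM in SM2 and 60.6, 57.5 and 62.4 CPM in SM4. The SM4 libraries were the highest, and every SM2 library was above every NC library. The log2 difference was 0.12 ± 0.05 (adjusted p = 0.12) for SM2 against NC and 0.75 ± 0.05 (adjusted p = 2.21e-09) for SM4 against NC. With NC as the control, this goes against a knockdown label for SM2 and SM4. With SM4 taken as the reference, METTL3 stood at -0.75 in NC and -0.63 in SM2 on the log2 scale. The study's supplement gives METTL3 these same values for its hairpins against the control hairpin. Its values for PECAM1, LYZ and LINC00342 likewise lie close to those of NC and SM2 here with SM4 as the reference. On these matches SM4 would be the control and NC and SM2 the knockdowns, which the labels do not state. SM2 against NC would then compare knockdowns with each other. NC, SM2 and SM4 below therefore mean the libraries labelled so, and "against NC" names a reference and not a control. Read against SM4, each SM4 value below keeps its size and turns its sign. An SM2 value against NC does not carry over to SM4 as the reference. Higher or lower in both means in both comparisons with NC, which share the NC libraries. Of 8 epithelial markers all were measured above 1 CPM, while 5 of 6 stromal, 4 of 6 immune and 3 of 4 endothelial markers stayed below it, with KDR at 0. The summed endothelial markers ranged from 5.418 to 5.782 CPM in NC, 7.847 to 8.901 in SM2 and 13.2 to 15.39 in SM4. Nearly all of that sum was PECAM1, at means of 5.48, 8.23 and 13.7 CPM. The summed immune markers ranged from 40.62 to 45.02, 58.55 to 63.21 and 41.57 to 44.24 CPM. They were mostly LYZ, at means of 36.7, 51.9 and 32.7 CPM, and CD14, at 5.76, 8.47 and 10.3 CPM. Against NC, LYZ was lower and CD14 higher in SM4. A sum carried by so few genes does not show cells of that type. The part of either sum in the lncRNA differences was not tested, and in bulk RNA fewer cells of a type and less RNA per cell cannot be told apart.

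As background, lncRNAs act in several ways. Some stay at chromatin or build nuclear bodies, as NEAT1 does for paraspeckles, and MALAT1 collects in nuclear speckles. Others bind proteins in the cytoplasm, as NORAD binds repressor proteins of the Pumilio family. Genes of the SNHG type carry small nucleolar RNAs (snoRNAs) in their introns: the spliced-out introns give the snoRNAs, which guide modification of ribosomal RNA, and the joined exons are often removed by nonsense-mediated decay. MicroRNA host genes hold microRNAs, which are cut out of the primary transcript. Many further lncRNAs begin beside a coding gene and run away from it, or lie on the opposite strand of one. The libraries were made from polyadenylated RNA, so the values are those of the host transcripts, not of the snoRNAs or microRNAs.

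Sequences are shown where the letters bear on the known role of a gene whose values follow. NORAD carries repeats of the Pumilio motif TGTANATA. On the transcript strand, NORAD held 15 such motifs and HCG11, a lncRNA on chromosome 6, held 16, the highest numbers among the 293, of which 75 (25.6%) held at least 1 in their longest annotated transcript. HCG11 resembles NORAD: 228 of its 5647 windows of 50 bases (4.038%) occur letter for letter in NORAD, and 0 of its 5547 windows of 150 bases do. Short windows around 2 matching motifs are given from the GENCODE transcripts on GRCh38, with the motif in capitals, NORAD from the minus strand of chromosome 20 (chr20:36050177-36050216 and chr20:36049697-36049736) and HCG11 from the plus strand of chromosome 6 (chr6:26522452-26522491 and chr6:26522928-26522967).
NORAD, motif 1: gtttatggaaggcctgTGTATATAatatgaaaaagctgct
HCG11, motif 1: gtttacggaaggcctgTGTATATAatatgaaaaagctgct
NORAD, motif 3: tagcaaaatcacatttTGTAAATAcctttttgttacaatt
HCG11, motif 2: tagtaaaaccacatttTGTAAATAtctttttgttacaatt

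Of the 293, 18 hold an annotated microRNA in their span. For the hosts described below for their microRNA, mature sequences of 1 arm are given from RefSeq (GRCh38), 5′ to 3′, with the seed (bases 2 to 8) in capitals. The miR-30a and miR-30c sequences, both inside LINC00472, share the seed GUAAACA. CYTOR and MIR4435-2HG each hold a copy of miR-4435.
miR-30a-5p, in LINC00472, chr6:71403595-71403616, minus strand: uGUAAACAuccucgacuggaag
miR-30c-5p, in LINC00472, chr6:71377003-71377025, minus strand: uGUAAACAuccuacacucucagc
miR-22-3p, in MIR22HG, chr17:1713914-1713935, minus strand: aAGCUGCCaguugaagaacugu
miR-146a-5p, in MIR3142HG, chr5:160485372-160485393, plus strand: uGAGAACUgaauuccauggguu
miR-4435, in CYTOR, chr2:87629764-87629785, plus strand: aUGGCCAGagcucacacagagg
miR-210-3p, in MIR210HG, chr11:568112-568133, minus strand: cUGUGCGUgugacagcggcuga

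Library totals ran from 44103272 to 63693728 counts, so 5 CPM corresponds to 221 to 318 counts. The 293 lncRNAs took 0.607% to 0.688% of a library's counts and 69.6% of the counts of all lncRNA genes. In mean level 9 reached 100 CPM, 129 lay between 10 and 100 CPM and 155 below 10 CPM. The 8 most abundant held 36.7% of the counts of the 293. The coefficient of variation between replicates had a median of 6.54% in NC, 9.25% in SM2 and 7.44% in SM4, and reached 30.2% for SNHG19 in SM2.

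Replicate libraries differed in these genes in a way that was weaker or absent in the median coding gene of at least 5 CPM. On the log2 scale, the 22 members with an annotated snoRNA in their span (snoRNA hosts) deviated from their group mean by a median of -0.15 in SM2 replicate 1, 0.17 in SM2 replicate 3 and -0.10 in SM4 replicate 2. The corresponding medians of the 271 other members were -0.06, 0.06 and -0.05, and those of 10484 protein-coding genes of at least 5 CPM were 0.01, -0.01 and 0.02. The combination of SM2 replicate 1 lowest and SM2 replicate 3 highest in their group with SM4 replicate 2 lowest in its own was seen for 14 of the 22 snoRNA hosts (63.6%), 64 of the 271 others (23.6%) and 701 coding genes (6.69%). MALAT1 and NEAT1 also followed it, with larger deviations. For named genes, most calls that changed on leaving out 1 of these libraries are given with that change. The count of snoRNA hosts called in SM2 is given without SM2 replicate 3 and not without SM2 replicate 1.

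**Figure D1:**
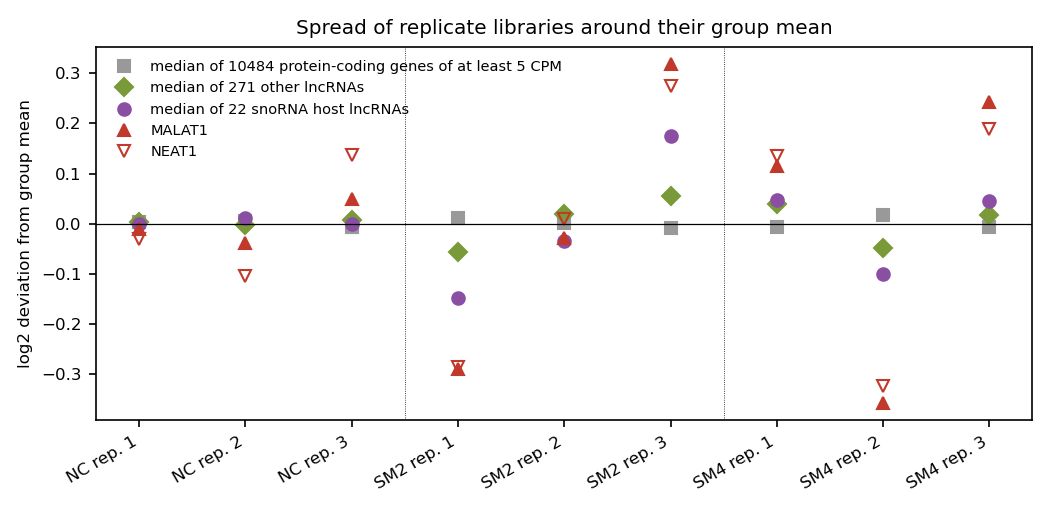
Deviation of each of the 9 libraries from its group mean (y axis, log2 of CPM plus 0.5) for MALAT1, NEAT1 and the medians of 22 snoRNA host lncRNAs, 271 other lncRNAs and 10484 protein-coding genes; dotted lines separate the groups NC, SM2 and SM4. In SM2 replicates 1 and 3 and in SM4 replicate 2 the lncRNA points lie apart from 0, MALAT1 and NEAT1 farthest, while the coding median stays near it.

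The most abundant lncRNAs differed between the groups by modest amounts, and both directions occurred. UCA1 (chr19:15828206-15836328, plus strand), a lncRNA named for urothelial carcinoma and the most abundant of the 293 both in CPM and per kilobase of annotated exon, stood at 678, 657 and 683 CPM in the NC libraries, 554, 566 and 541 CPM in SM2 and 566, 590.2 and 638 CPM in SM4. All 6 SM2 and SM4 libraries lay below the lowest NC library. The log2 difference was -0.28 ± 0.04 (adjusted p = 7.53e-05) for SM2 and -0.17 ± 0.04 (adjusted p = 0.00758) for SM4, and the SM4 call was lost without SM4 replicate 1 (-0.13). NORAD (chr20:36045618-36051018, minus strand), the Pumilio-binding RNA whose motifs are shown above, stood at 361, 343 and 347 CPM in the NC libraries, 444, 408 and 390.1 CPM in SM2 and 394, 386 and 384 CPM in SM4. Here all SM2 and SM4 libraries lay above NC, by 0.24 ± 0.05 (adjusted p = 0.00054) and 0.15 ± 0.05 (adjusted p = 0.0247). The SM4 call of NORAD was lost on leaving out any SM4 library, NC replicate 2 or NC replicate 3, with values between 0.13 and 0.15.

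NEAT1 (chr11:65422774-65445540, plus strand), the scaffold of paraspeckles, stood at 286, 272 and 322 CPM in the NC libraries, 330.5, 406 and 488 CPM in SM2 and 485, 353 and 504 CPM in SM4. Every SM2 and SM4 library was above the highest NC library, and the groups SM2 and SM4 overlapped. On the log2 scale NEAT1 rose by 0.48 ± 0.11 (adjusted p = 0.00396) and 0.61 ± 0.11 (adjusted p = 0.000467) in SM2 and SM4, and kept both calls under every alternative tried, with ranges of 0.33 to 0.61 and 0.51 to 0.75. MALAT1 lies beside NEAT1 (chr11:65497640-65508073, plus strand) and stood at 349, 343 and 364 CPM in the NC libraries, 299, 359 and 456 CPM in SM2 and 456, 329 and 498 CPM in SM4. The SM2 libraries fell on both sides of NC and SM4 replicate 2 was below every NC library. Its log2 difference was 0.08 ± 0.12 (adjusted p = 0.712) for SM2 and 0.28 ± 0.12 (adjusted p = 0.106) for SM4, neither past the threshold of 0.05. Without SM2 replicate 3 the SM2 value was -0.09, and the SM4 value passed at 0.44 without SM4 replicate 2 and under 6 other of 17 alternatives, among them no filter on low counts (0.28), the replicate block (0.27), only the 6 libraries compared (0.28) and leaving out SM2 replicate 1 or 3 (0.28). Of 10 proteins of paraspeckles, 3 were higher and 1 lower in SM2 and 1 was higher and 1 lower in SM4, where 32.7% and 31.1% of coding genes of at least 5 CPM were called. PSPC1, a core paraspeckle protein, rose by 0.26 ± 0.05 (adjusted p = 0.000478) and 0.17 ± 0.05 (adjusted p = 0.0137), and SFPQ, an RNA-binding protein that paraspeckles also need, fell at -0.16 ± 0.04 (adjusted p = 0.00577) and -0.11 ± 0.04 (adjusted p = 0.0422).

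AFAP1-AS1, of which 42.2% of the exon bases lie opposite exons of AFAP1, stood at 226, 224 and 228 CPM in the NC libraries, 215, 213 and 189.5 CPM in SM2 and 199, 210.3 and 206 CPM in SM4, with every SM2 and SM4 library below NC. Its differences of -0.13 ± 0.05 (adjusted p = 0.0464) and -0.14 ± 0.05 (adjusted p = 0.0417) lost the call under 13 and 9 of 17 alternatives, among them leaving out any 1 NC library, and SM2 fell by only 0.08 without SM2 replicate 3. FGD5-AS1, which starts head to head with NR2C2, stood at 133, 133 and 133 CPM in the NC libraries, 150.1, 148 and 139 CPM in SM2 and 138, 139 and 139 CPM in SM4, which gave 0.13 ± 0.04 (adjusted p = 0.0267) and 0.06 ± 0.04 (adjusted p = 0.389). The SM2 call was lost on leaving out any NC library, SM2 replicate 1 or 2, or SM4 replicate 1, at 0.11 to 0.14. It was also lost with no filter on low counts or only the 6 libraries compared (0.14 in each). OIP5-AS1, a cytoplasmic lncRNA known to bind the protein HuR and microRNAs, was at 0.08 ± 0.05 (adjusted p = 0.232) and -0.08 ± 0.05 (adjusted p = 0.299), and in SM2 it passed at 0.13 without SM2 replicate 3. SNHG29, a snoRNA host among the 8 most abundant, is described with its class.

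**Figure D2:**
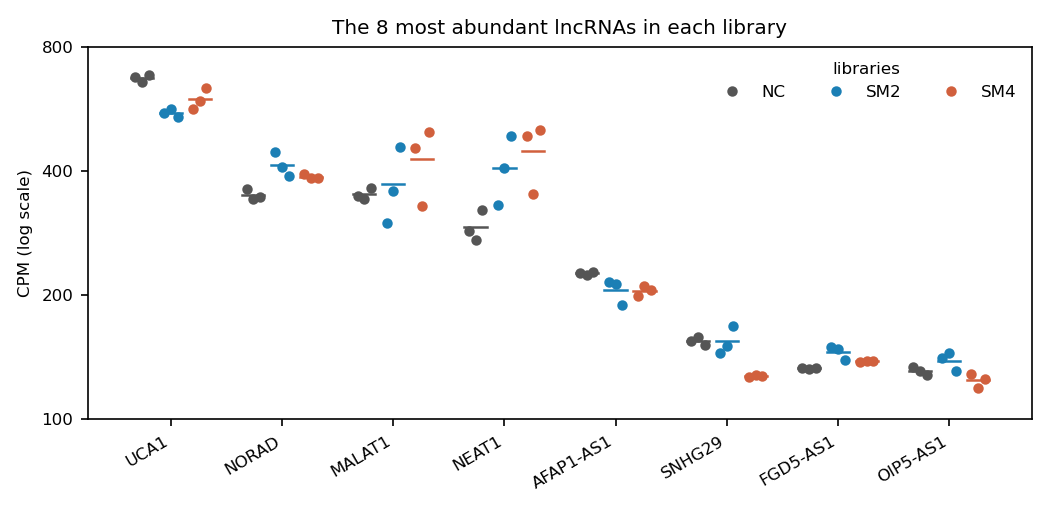
Level of the 8 most abundant lncRNAs in each of the 9 libraries (points; y axis CPM on a log scale) with the mean of each group as a bar, for NC, SM2 and SM4. The SM2 and SM4 points of UCA1 lie below NC, those of NORAD and NEAT1 lie above it, and MALAT1 and NEAT1 show the widest spread between replicates.

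Per kilobase of exon, UCA1 stood at 162, 133 and 144 CPM in NC, SM2 and SM4, followed by NORAD at 64.9, 76.7 and 71.8 and MALAT1 at 33.7, 35.6 and 41.0. NEAT1, whose annotation spans 22767 bases of exon, was 12th in this order at 12.9, 17.9 and 19.6 CPM per kilobase. The bases of NEAT1 and MALAT1 that were covered are not known from gene counts.

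Over the 293, SM2 against NC called 73 lncRNAs at an adjusted p below 0.05, 38 higher and 35 lower. That is 24.9% of the members, where the background was 22.3% of all 19674 genes tested and 32.7% of the 10484 protein-coding genes of at least 5 CPM. SM4 against NC also called 73, with 29 higher and 44 lower, against backgrounds of 21.2% and 31.1%. SM4 against SM2 called 44 (15.0%), with 14 higher and 30 lower, against 12.8% and 19.5%. Without SM2 replicate 3 and SM4 replicate 2 that balance turned, with 63 calls, 41 higher and 22 lower, and there were 23 calls without SM4 replicate 1 and 26 without SM4 replicate 3. The first and second comparisons share the NC libraries. The 293 lncRNAs were thus called somewhat less often than coding genes of at least 5 CPM, without a test of that difference. These sets share the lower limit of 5 CPM but were not matched in level. Against NC, the lncRNAs of 10 CPM or more were called in 32.6% and 33.3%, close to the 32.7% and 31.1% of those coding genes. The 2854 tested lncRNA genes below 5 CPM were called in 4.70%, 3.85% and 2.17% in the 3 comparisons.

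Differences were small. The median called difference was 1.29-fold in both comparisons with NC and 1.28-fold between SM4 and SM2, and 7, 11 and 3 called lncRNAs differed by at least 1.5-fold. The largest called difference from NC was 1.97-fold in SM2 and 1.84-fold in SM4, and that between SM4 and SM2 was 2.26-fold. Of the 293, 114 were called in at least 1 comparison and 179 in none. Members with a mean of 10 CPM or more were called in 32.6% and 33.3% against NC, those below 10 CPM in 18.1% and 17.4%. The median log2 difference over the 293 was 0.00 in SM2, -0.02 in SM4 and -0.03 between them, beside 0.00 for all genes tested in each.

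**Figure D3:**
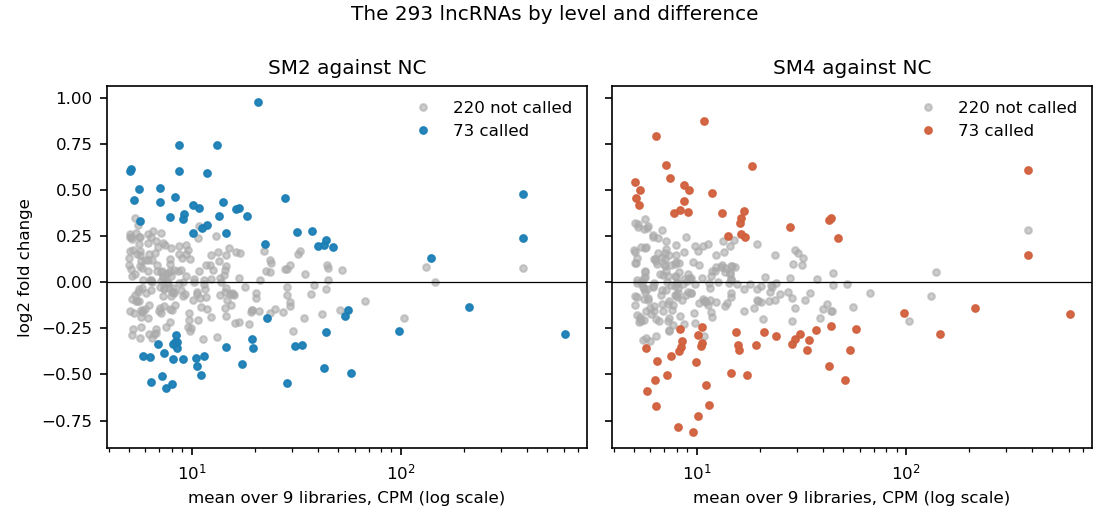
Mean level over 9 libraries (x axis, CPM on a log scale) against the log2 fold change (y axis) of the 293 lncRNAs, for SM2 against NC and SM4 against NC; coloured points were called at an adjusted p below 0.05. In each panel 73 are called, the called points stay within 0.98 of 0, and the 8 most abundant stay within 0.61 of 0.

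LINC03040, an intergenic lncRNA on chromosome 6 (chr6:44000580-44007612, plus strand, 3 exon blocks, no exon base shared with a coding gene), showed the largest difference of the 293. It stood at 16.1, 15.0 and 17.5 CPM in the NC libraries, 31.0, 32.3 and 32.4 CPM in SM2 and 13.4, 15.3 and 13.7 CPM in SM4. The 3 SM2 libraries lay far above the other 6, and NC and SM4 overlapped. It rose by 0.98 ± 0.07 (adjusted p = 4.01e-09) in SM2, stood at -0.20 ± 0.07 (adjusted p = 0.0625) in SM4, and was lower in SM4 than in SM2, at -1.18 ± 0.07 (adjusted p = 7.61e-10). The first and last calls held under every alternative, and SM4 against NC passed without NC replicate 2 (-0.25), SM2 replicate 3 (-0.20) or SM4 replicate 2 (-0.26).

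Of the other 7 lncRNAs with the largest rises in SM2, 5 have antisense symbols. PSMG3-AS1 begins head to head with PSMG3, a proteasome assembly gene, and stood at 6.37, 6.38 and 6.51 CPM in the NC libraries, 10.8, 11.1 and 10.5 CPM in SM2 and 9.00, 8.70 and 8.47 CPM in SM4. Its groups did not overlap, with SM2 the highest and SM4 between, at 0.75 ± 0.09 (adjusted p = 1.99e-06) and 0.44 ± 0.09 (adjusted p = 0.00074). PSMG3 itself was at -0.05 ± 0.07 (adjusted p = 0.69) and -0.07 ± 0.07 (adjusted p = 0.582). SLC9A3-AS1, opposite the sodium-proton exchanger SLC9A3, stood at 10.7, 8.83 and 10.4 CPM in the NC libraries, 13.3, 16.3 and 20.5 CPM in SM2 and 12.4, 11.7 and 14.9 CPM in SM4. All SM2 and SM4 libraries exceeded NC, by 0.75 ± 0.13 (adjusted p = 0.000172) and 0.38 ± 0.13 (adjusted p = 0.0388), and the SM4 call was lost without SM4 replicate 1 (0.41), SM4 replicate 3 (0.27), NC replicate 2 (0.29) or NC replicate 3 (0.41).

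CRNDE, a lncRNA reported as raised in several cancers, stood at 4.70, 3.57 and 3.54 CPM in the NC libraries, 5.04, 6.51 and 6.41 CPM in SM2 and 5.35, 5.19 and 5.62 CPM in SM4, with all 6 SM2 and SM4 libraries above NC, and rose by 0.62 ± 0.13 (adjusted p = 0.00181) in SM2 and 0.46 ± 0.13 (adjusted p = 0.0163) in SM4. The SM4 call was lost without SM4 replicate 3 (0.43), NC replicate 2 (0.39) or NC replicate 3 (0.39). The NC mean of CRNDE, 3.94 CPM, lies below the selection limit, as does that of SNAI3-AS1 (3.99 CPM). LINC01963 rose by 0.60 ± 0.10 (adjusted p = 8.97e-05) and 0.53 ± 0.10 (adjusted p = 0.000344), and BCAN-AS1, which starts head to head with BCAN, by 0.59 ± 0.09 (adjusted p = 3.56e-05) and 0.49 ± 0.09 (adjusted p = 0.000271). SNAI3-AS1, one of the 3 members just inside the level limit, rose by 0.60 ± 0.14 (adjusted p = 0.00318) in SM2, where the divergent neighbour MVD, an enzyme of the mevalonate pathway, rose by 0.42 ± 0.05 (adjusted p = 1.99e-06). THAP7-AS1 rose by 0.51 ± 0.10 (adjusted p = 0.000489) in SM2, with THAP7 at 0.08 ± 0.05 (adjusted p = 0.293).

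Falls in SM2 were led by KRT7-AS, which lies inside KRT7, a keratin gene of simple epithelium, on the opposite strand. It stood at 9.56, 8.59 and 9.65 CPM in the NC libraries, 5.87, 6.34 and 6.43 CPM in SM2 and 7.09, 6.60 and 7.39 CPM in SM4, with the 3 groups apart and SM2 the lowest, at -0.57 ± 0.10 (adjusted p = 0.000165) and -0.40 ± 0.09 (adjusted p = 0.00391). KRT7 was at -0.11 ± 0.04 (adjusted p = 0.0774) and -0.06 ± 0.04 (adjusted p = 0.363). LUCAT1, a stress-responsive lncRNA that restrains interferon genes in immune cells, stood at 34.4, 35.1 and 34.3 CPM in the NC libraries, 19.3, 24.9 and 26.7 CPM in SM2 and 30.3, 23.1 and 29.2 CPM in SM4. All SM2 and SM4 libraries were below NC, at -0.55 ± 0.10 (adjusted p = 0.000325) and -0.33 ± 0.10 (adjusted p = 0.0173), the second of which was lost without NC replicate 2 (-0.32) or SM4 replicate 2 (-0.22).

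LINC02967 fell in SM2, at -0.55 ± 0.10 (adjusted p = 0.000548) and stood at -0.08 ± 0.10 (adjusted p = 0.656) in SM4, with the SM4 libraries higher than SM2 by 0.47 ± 0.10 (adjusted p = 0.00394). LINC03061, at a mean of 67.9, 48.2 and 56.9 CPM in NC, SM2 and SM4, was lower, at -0.49 ± 0.06 (adjusted p = 3.68e-06) and -0.26 ± 0.06 (adjusted p = 0.00318). LINC00886 was lower, at -0.54 ± 0.11 (adjusted p = 0.00126) and -0.67 ± 0.11 (adjusted p = 0.000134), LINC00973, at -0.50 ± 0.09 (adjusted p = 0.000361) and -0.56 ± 0.09 (adjusted p = 0.000103), and ENSG00000285517, at -0.51 ± 0.11 (adjusted p = 0.00191) and -0.50 ± 0.11 (adjusted p = 0.00193). VPS9D1-AS1, opposite VPS9D1, was lower, at -0.47 ± 0.07 (adjusted p = 2.29e-05) and -0.46 ± 0.07 (adjusted p = 2.5e-05), while VPS9D1 was at 0.14 ± 0.08 (adjusted p = 0.244) and 0.04 ± 0.08 (adjusted p = 0.776).

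The largest rise in SM4 against NC was that of LINC00342 (chr2:95807052-95835003, minus strand), which stood at 7.09, 8.29 and 7.93 CPM in the NC libraries, 8.93, 12.9 and 9.06 CPM in SM2 and 16.1, 11.1 and 15.7 CPM in SM4. All 3 SM4 libraries and all 3 SM2 libraries were above NC. It rose by 0.88 ± 0.14 (adjusted p = 8.16e-05) in SM4 and 0.40 ± 0.14 (adjusted p = 0.0476) in SM2, the SM2 call being lost without any 1 of the NC libraries (0.34 to 0.45), SM2 replicate 2 (0.21) or SM4 replicate 3 (0.40). With SM4 as the reference LINC00342 stood at -0.88 in NC and -0.47 in SM2, close to the hairpin values in the study's supplement. LOXL1-AS1 runs opposite LOXL1, a lysyl oxidase that cross-links elastin, and stood at 4.79, 5.79 and 4.08 CPM in the NC libraries, 6.37, 5.45 and 5.603 CPM in SM2 and 7.42, 8.58 and 9.44 CPM in SM4. The SM4 libraries were all above NC, at 0.79 ± 0.13 (adjusted p = 9.2e-05), with SM2 at 0.25 ± 0.13 (adjusted p = 0.198). LOXL1, at a mean of 9.09, 11.9 and 17.8 CPM in NC, SM2 and SM4, rose by 0.39 ± 0.09 (adjusted p = 0.00337) and 0.97 ± 0.09 (adjusted p = 7.61e-08).

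LINC01559 rose by 0.63 ± 0.12 (adjusted p = 0.000359) in SM4 and 0.43 ± 0.12 (adjusted p = 0.0102) in SM2; the SM2 call was lost without NC replicate 2 (0.38) or 3 (0.36). ELF3-AS1, opposite the epithelial transcription factor gene ELF3, stood at 0.20 ± 0.10 (adjusted p = 0.167) in SM2 and rose by 0.57 ± 0.10 (adjusted p = 0.000213) in SM4, and ELF3 rose by 0.43 ± 0.04 (adjusted p = 3.1e-07) in SM4. ENSG00000205890, opposite BICDL2, rose by 0.54 ± 0.16 (adjusted p = 0.0207), a call lost on leaving out SM4 replicate 3 (0.38), NC replicate 2 (0.52) or NC replicate 3 (0.49). Its means in NC (4.19 CPM) and SM2 (4.93 CPM) lie below the selection limit.

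Falls in SM4 included ENSG00000227706, which stood at 12.4, 10.4 and 13.0 CPM in the NC libraries, 9.98, 11.5 and 12.1 CPM in SM2 and 8.01, 6.08 and 7.65 CPM in SM4. The SM4 libraries lay below all others, at -0.72 ± 0.11 (adjusted p = 6.64e-05) against NC, while SM2 was at -0.09 ± 0.11 (adjusted p = 0.615). LINC00707 was lower, at -0.59 ± 0.12 (adjusted p = 0.00112). ENSG00000276980 fell in both, at -0.40 ± 0.08 (adjusted p = 0.000771) and -0.67 ± 0.08 (adjusted p = 2.36e-06), but all of its 1357 exon bases lie inside exons of the complement gene C3 on the same strand. C3, at a mean of 1330, 1227 and 1089 CPM in NC, SM2 and SM4, was lower, at -0.12 ± 0.04 (adjusted p = 0.0432) and -0.29 ± 0.04 (adjusted p = 1.94e-05). Counts were assigned to ENSG00000276980 all the same, and how reads of the shared bases were divided between it and C3 is not known.

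**Figure D4:**
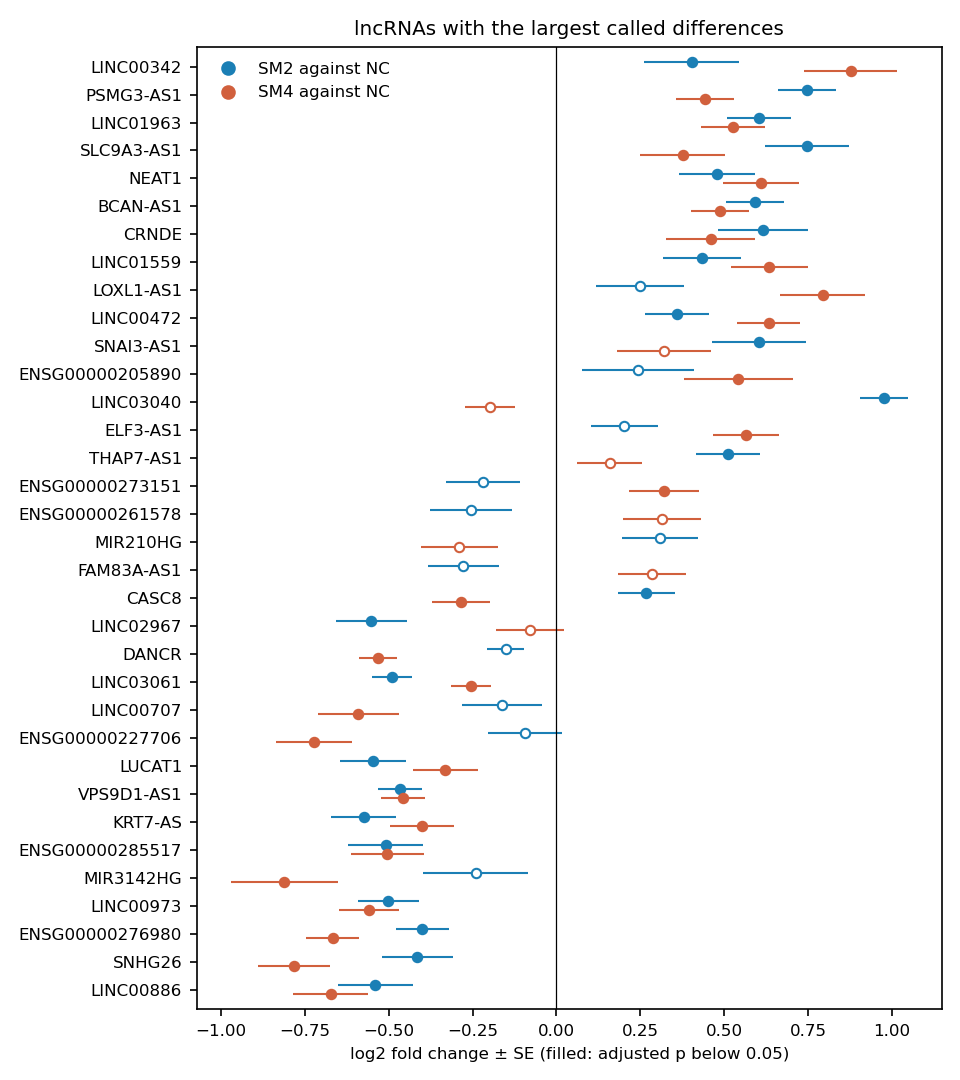
Log2 fold change with its standard error (x axis) of the lncRNAs with the largest called differences in any comparison, for SM2 against NC and SM4 against NC; filled points were called. LINC03040 stands far right in SM2 only, CASC8 has called points on both sides of 0, and the MIR3142HG and SNHG26 points of SM4 lie farthest left.

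Called in opposite directions against the shared NC libraries was 1 lncRNA. CASC8, a lncRNA of the cancer-associated region upstream of MYC on chromosome 8, stood at 10.4, 10.7 and 9.12 CPM in the NC libraries, 12.4, 11.9 and 12.1 CPM in SM2 and 8.46, 8.31 and 8.08 CPM in SM4. No 2 groups overlapped. With SM4 as the reference CASC8 was called higher in both NC (0.28) and SM2 (0.55), so the opposite directions hold only with NC as the reference. SM2 was higher than NC by 0.27 ± 0.09 (adjusted p = 0.0269), SM4 lower, at -0.28 ± 0.09 (adjusted p = 0.0219), and SM4 lower than SM2, at -0.55 ± 0.09 (adjusted p = 0.000121). The SM2 call was lost without NC replicate 3 (0.20) or SM2 replicate 1 (0.25) or 2 (0.28), the SM4 call without any 1 SM4 library (-0.27 to -0.30), NC replicate 1 (-0.26) or NC replicate 2 (-0.24), and the SM4 against SM2 call in no case. CASC19, of the same region, stood at 62.7, 62.4 and 57.9 CPM in the NC libraries, 55.5, 55.0 and 50.7 CPM in SM2 and 48.3, 47.7 and 45.8 CPM in SM4 and was lower, at -0.18 ± 0.05 (adjusted p = 0.0154) and -0.37 ± 0.05 (adjusted p = 2.73e-05). The SM2 call of CASC19 was lost without NC replicate 1 (-0.17) or 2 (-0.17).

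Between SM4 and SM2, beside LINC03040 and CASC8, the lowest in SM4 were ENSG00000227706 (-0.63 ± 0.11, adjusted p = 0.000599) and MIR210HG. MIR210HG, the host of the hypoxia-induced miR-210 shown above, stood at 10.7, 9.77 and 11.3 CPM in the NC libraries, 11.1, 13.4 and 14.8 CPM in SM2 and 10.0, 7.29 and 8.68 CPM in SM4. SM4 and SM2 did not overlap, and SM4 was lower, at -0.60 ± 0.11 (adjusted p = 0.00107), with SM2 at 0.31 ± 0.11 (adjusted p = 0.0566) and SM4 at -0.29 ± 0.11 (adjusted p = 0.0818) against NC. The SM2 value passed without SM2 replicate 1 (0.41) or SM4 replicate 1 or 2 (0.31), and the SM4 value without SM4 replicate 1 (-0.41) or SM2 replicate 1 or 3 (-0.29). Both values passed with no filter on low counts and with only the 6 libraries compared (0.31 and -0.29). With the replicate block the SM2 value passed (0.31). Higher in SM4 than in SM2 were ENSG00000261578 (0.57 ± 0.12, adjusted p = 0.00235), FAM83A-AS1 (0.56 ± 0.10, adjusted p = 0.000766), LOXL1-AS1 (0.55 ± 0.13, adjusted p = 0.00542) and ENSG00000273151 (0.54 ± 0.11, adjusted p = 0.00156). FAM83A, opposite FAM83A-AS1 and an oncogene of growth factor signalling, was also higher in SM4 than in SM2, by 0.51 ± 0.04 (adjusted p = 3.61e-08).

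Most snoRNA hosts that were called were lower than in NC. In SM2, 5 were called, 1 higher and 4 lower, and in SM4, 8 were called, all lower, with a median log2 difference of -0.05 and -0.14 over the 22. The called shares of 22.7% and 36.4% stand beside 24.9% of all members in each and 22.3% and 21.2% of all genes tested. Hosts are more abundant than the members as a whole, with a median level of 29.0 against 9.35 CPM. Members of 10 CPM or more were called in 32.6% and 33.3%. Adding GAS5, a snoRNA host by name for which GENCODE v44 lists no snoRNA in the span and RefSeq lists 11, left both counts at 5 and 8, as did a list of 38 hosts by name, of which 22 are among the 293. SM2 replicate 3, in which hosts were high, bears on the first count: without it 10 hosts were called in SM2, all lower, and 9 in SM4 when SM4 replicate 2 was left out too. Without NC replicate 3 the SM2 count was 3, and without NC replicate 2 the SM4 count was 5. With SM4 as the reference the direction turns: 8 hosts were higher in NC and 5 in SM2, with medians of 0.14 and 0.11.

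SNHG1, host of a cluster of C/D box snoRNAs that begins head to head with SLC3A2, stood at 109, 106 and 108 CPM in the NC libraries, 84.1, 86.4 and 99.1 CPM in SM2 and 99.4, 89.7 and 98.8 CPM in SM4. Both SM2 and SM4 lay below NC, at -0.26 ± 0.06 (adjusted p = 0.00199) and -0.17 ± 0.06 (adjusted p = 0.0399). The SM4 call was lost on leaving out any 1 NC or SM4 library, at -0.12 to -0.19, and with upper-quartile normalization (-0.15). SNHG16, host of 3 SNORD1 genes, stood at 49.98, 49.6 and 47.2 CPM in the NC libraries, 40.8, 41.0 and 40.0 CPM in SM2 and 42.2, 41.0 and 41.5 CPM in SM4 and was lower, at -0.27 ± 0.05 (adjusted p = 0.000431) and -0.24 ± 0.05 (adjusted p = 0.00139). SNHG4, which shares exon bases with MATR3 and holds SNORA74A, was lower, at -0.34 ± 0.08 (adjusted p = 0.00352) and -0.37 ± 0.08 (adjusted p = 0.00166). The largest fall among hosts was that of SNHG26, host of SNORD93, which stood at 10.1, 9.77 and 11.5 CPM in the NC libraries, 7.27, 7.63 and 8.62 CPM in SM2 and 6.25, 5.33 and 6.71 CPM in SM4. Its NC libraries lay above all others, and it was lower, at -0.41 ± 0.11 (adjusted p = 0.00674) and -0.78 ± 0.11 (adjusted p = 1.43e-05), the SM2 call being lost without NC replicate 3 (-0.34).

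Several hosts were lower in SM4 without a call in SM2. DANCR (chr4:52712325-52723623, plus strand), the host of SNORA26 and a lncRNA that opposes differentiation of progenitor cells, stood at 59.1, 60.1 and 58.1 CPM in the NC libraries, 51.6, 52.3 and 55.7 CPM in SM2 and 38.1, 40.7 and 43.95 CPM in SM4. SM4 lay below both other groups, at -0.53 ± 0.06 (adjusted p = 4.84e-07), with SM2 at -0.15 ± 0.06 (adjusted p = 0.0562). The SM2 value passed without SM2 replicate 3 (-0.18) or SM4 replicate 3 (-0.15), by DESeq2 (-0.15) and with the replicate block (-0.15). DANCR was lower in SM4 than in SM2, at -0.38 ± 0.06 (adjusted p = 7.04e-05). SNHG29, host of SNORD49A, SNORD49B and SNORD65, stood at 155, 158 and 152 CPM in the NC libraries, 145, 151 and 169 CPM in SM2 and 127, 128 and 127 CPM in SM4. The SM4 libraries lay below the other 6, at -0.28 ± 0.05 (adjusted p = 0.000279) against NC and -0.28 ± 0.05 (adjusted p = 0.000508) against SM2. SNHG7 was lower, at -0.26 ± 0.07 (adjusted p = 0.012) and SNHG3, which shares 242 exon bases with RCC1, at -0.31 ± 0.10 (adjusted p = 0.0226). The SNHG7 call was lost without NC replicate 2 (-0.19) or SM4 replicate 1 (-0.24), and the SNHG3 call without SM4 replicate 2 (-0.22), NC replicate 2 (-0.32) or NC replicate 3 (-0.28).

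SNHG6 went the other way in SM2. It stood at 38.1, 40.2 and 39.9 CPM in the NC libraries, 40.5, 43.1 and 52.0 CPM in SM2 and 36.0, 35.1 and 35.8 CPM in SM4, and SM4 lay below NC and SM2. The SM2 difference of 0.20 ± 0.07 (adjusted p = 0.0487) fell to 0.09 without SM2 replicate 3 and lost its call. That call was also lost on leaving out any NC or SM4 library (0.17 to 0.21) and with only the 6 libraries compared (0.20). SM4 against SM2 was -0.34 ± 0.07 (adjusted p = 0.00204). Between SM4 and SM2, 5 hosts were called, all lower in SM4: SNHG6, SNHG29, DANCR, SNHG26 (-0.37 ± 0.11, adjusted p = 0.0288) and SNHG8 (-0.29 ± 0.08, adjusted p = 0.0218). The SNHG26 and SNHG8 calls were lost without SM2 replicate 3 (-0.29 and -0.19), SM4 replicate 2 (-0.28 and -0.22) or SM4 replicate 1 (-0.39 and -0.27). GAS5, whose exons are removed by nonsense-mediated decay when translation runs, stood at 111, 117 and 109.9 CPM in the NC libraries, 81.3, 97.0 and 118 CPM in SM2 and 101, 94.0 and 97.7 CPM in SM4. All SM4 libraries were below NC and SM2 spread across it, at -0.19 ± 0.08 (adjusted p = 0.102) and -0.21 ± 0.08 (adjusted p = 0.0775). Without SM2 replicate 3 the SM2 value of GAS5 was -0.34 and passed, as it did with no filter on low counts (-0.19). Over all 17 alternatives it ran from -0.34 to -0.07. The SM4 value passed at -0.21 without SM2 replicate 1 or 3. It also passed with no filter, the replicate block or only the 6 libraries compared, at -0.21 in each.

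**Figure D5:**
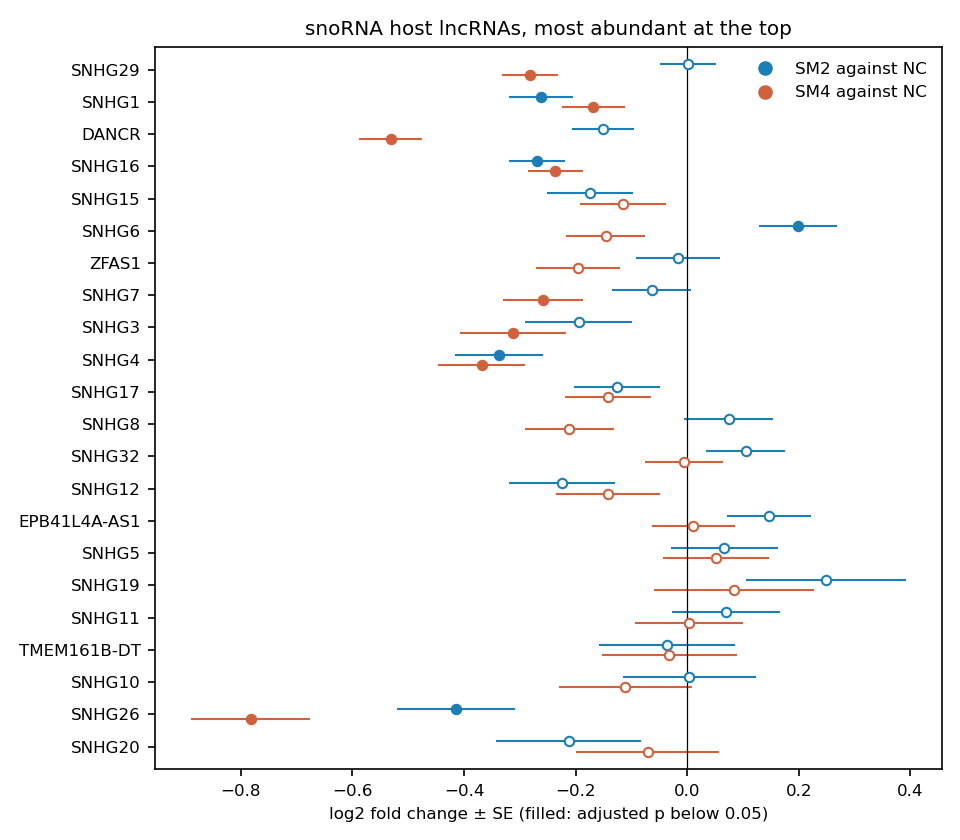
Log2 fold change with its standard error (x axis) of the 22 snoRNA host lncRNAs, ordered by mean level with the most abundant at the top, for SM2 against NC and SM4 against NC; filled points were called. All 8 filled SM4 points lie left of 0, as do 4 of the 5 filled SM2 points, with SNHG6 the exception.

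Most genes that act on snoRNAs or on host transcripts did not pass the test. Of 12 proteins of snoRNA particles and their assembly, 4 were called in each comparison with NC, all lower. NOP56, a core protein of C/D box particles, stood at -0.17 ± 0.05 (adjusted p = 0.0105) and -0.25 ± 0.05 (adjusted p = 0.000489), RUVBL1, an assembly ATPase, at -0.14 ± 0.05 (adjusted p = 0.0299) and -0.21 ± 0.04 (adjusted p = 0.00159), and NOP10, of H/ACA particles, at -0.28 ± 0.06 (adjusted p = 0.00128) in SM4. Of 10 nonsense-mediated decay factors 1 was higher in each, UPF3B in SM2 (0.30 ± 0.07, adjusted p = 0.00459) and SMG5 in SM4 (0.13 ± 0.04, adjusted p = 0.0247). Of 11 measured nuclear RNA decay factors 2 were lower in SM2 and 1 in SM4. EXOSC3, a subunit of the RNA exosome, was lower, at -0.36 ± 0.06 (adjusted p = 0.000124) and -0.26 ± 0.06 (adjusted p = 0.00244), and its helicase partner MTREX was lower, at -0.20 ± 0.05 (adjusted p = 0.0025) in SM2. Over all genes tested 22.3% and 21.2% were called, and of coding genes of at least 5 CPM, the level of all these listed genes, 32.7% and 31.1%.

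The microRNA hosts were called in 3 of 18 cases in SM2, 2 higher and 1 lower, and in 7 of 18 in SM4, 2 higher and 5 lower. These shares of 16.7% and 38.9% stand beside 24.9% of all members in each. LINC00472 (chr6:71187161-71420745, minus strand), whose span holds the miR-30a and miR-30c sequences shown above, stood at 15.5, 13.2 and 14.3 CPM in the NC libraries, 16.3, 19.4 and 19.5 CPM in SM2 and 24.3, 18.9 and 23.5 CPM in SM4. All SM2 and SM4 libraries were above NC, by 0.36 ± 0.10 (adjusted p = 0.00889) and 0.63 ± 0.09 (adjusted p = 3.94e-05), and the SM2 call was lost without NC replicate 2 (0.30). OGFRL1, which lies opposite it and shares 949 exon bases, went down, at -0.32 ± 0.05 (adjusted p = 0.000103) and -0.29 ± 0.05 (adjusted p = 0.000225). NEAT1, described above, is the other host that rose.

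MIR22HG, the host of miR-22, chosen here for its microRNA after its values were seen, stood at 10.8, 13.9 and 12.9 CPM in the NC libraries, 8.56, 8.82 and 10.2 CPM in SM2 and 9.87, 10.2 and 9.97 CPM in SM4, with all SM2 and SM4 libraries below NC. It was lower, at -0.45 ± 0.10 (adjusted p = 0.00175) and -0.33 ± 0.10 (adjusted p = 0.0169), the second of which was lost without SM4 replicate 1 (-0.32), SM4 replicate 3 (-0.33), NC replicate 2 (-0.25) or NC replicate 3 (-0.31). MIR3142HG (chr5:160438594-160487426, plus strand) carries miR-146a, a microRNA that NF-kB induces and that restrains the same pathway, and stood at 12.2, 10.4 and 13.0 CPM in the NC libraries, 7.57, 9.55 and 12.9 CPM in SM2 and 7.55, 5.13 and 7.71 CPM in SM4. SM4 lay below NC in every library, at -0.81 ± 0.16 (adjusted p = 0.00076), the largest fall in that comparison, while SM2 was at -0.24 ± 0.16 (adjusted p = 0.308). Without SM2 replicate 3 the SM2 value was -0.47 and passed, and over all 17 alternatives it ran from -0.47 to -0.08. SM4 against SM2, at -0.57 ± 0.16 (adjusted p = 0.0218), no longer passed without SM2 replicate 3 (-0.34), SM4 replicate 2 (-0.40) or both (-0.17), or by DESeq2 (-0.56).

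CYTOR and MIR4435-2HG, 2 related genes on chromosome 2, fell in SM4, at -0.27 ± 0.08 (adjusted p = 0.0168) and -0.29 ± 0.06 (adjusted p = 0.00155). Of the 50-base windows of CYTOR, 61.2% occur in MIR4435-2HG, and of its 150-base windows 26.6%, so how reads were split between them is uncertain. The CYTOR call was lost without NC replicate 2 (-0.24) or SM4 replicate 3 (-0.22). HCG11, the NORAD-like gene of the motif windows, also named after its values were seen, stood at 9.90, 7.85 and 8.75 CPM in the NC libraries, 12.1, 12.1 and 11.1 CPM in SM2 and 10.9, 9.41 and 9.44 CPM in SM4. It was higher in SM2 in every library, by 0.42 ± 0.10 (adjusted p = 0.00316), and at 0.17 ± 0.10 (adjusted p = 0.245) in SM4. A small part of its 50-base windows, 4.04%, also occurs in the more abundant NORAD, which was higher in SM2 too. How reads were split between HCG11 and NORAD was not tested.

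GGACT, a common form of the sequence that METTL3 methylates, was counted on the transcript strand of the longest annotated transcript. It occurred in 258 of the 293 (88.1%). Its median density was 1.00 per kilobase in the 38 lncRNAs higher in SM2, 0.744 in the 35 lower and 0.961 in the 220 not called, and 1.05, 0.754 and 0.927 per kilobase in the corresponding groups of SM4. The interquartile ranges overlapped, from 0.440 to 0.952 for the lower and 0.523 to 1.49 for the uncalled genes of SM2. A match of letters does not show a methylated site.

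By the lists of lncRNAs used, the architectural and chromatin-associated group had 6 members here, of which 2 were called in each comparison with NC, both higher. Beside this and the following lists, 24.9% of all 293 were called in SM2 and in SM4. The called members of the architectural group were NEAT1 and CHASERR. CHASERR, known to limit the chromatin remodeller gene CHD2 in cis, has 61.9% of its exon bases inside a coding gene's span and shares 121 of them with exons of CHD2 on the same strand. It stood at 23.9, 23.1 and 22.6 CPM in the NC libraries, 32.9, 28.9 and 33.5 CPM in SM2 and 29.3, 27.7 and 28.7 CPM in SM4, with all SM2 and SM4 libraries above NC. It rose by 0.46 ± 0.06 (adjusted p = 2.25e-05) and 0.30 ± 0.06 (adjusted p = 0.00154), and CHD2 was at 0.11 ± 0.05 (adjusted p = 0.178) and rose by 0.23 ± 0.05 (adjusted p = 0.00356). The cytoplasmic decoy group had 6 members, with 1 higher in SM2 (NORAD) and 1 higher and 1 lower in SM4 (NORAD and DANCR). Of 3 HOX cluster lncRNAs, HOXB-AS3 was called, higher in SM4 than in SM2 by 0.39 ± 0.11 (adjusted p = 0.0186). It stood at -0.29 ± 0.11 (adjusted p = 0.0571) in SM2 and 0.10 ± 0.11 (adjusted p = 0.598) in SM4 against NC, and the call between SM4 and SM2 was lost without SM2 replicate 1 (0.30) or SM4 replicate 1 (0.33) or 3 (0.32).

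Of 15 cancer-associated lncRNAs, 3 were higher and 4 lower in SM2, and 3 higher and 6 lower in SM4. The higher ones were NEAT1, CRNDE and HCP5 in both, of which CRNDE lay below the selection limit in NC (3.94 CPM). HCP5, in the MHC class I region, stood at 13.1, 12.8 and 14.8 CPM in the NC libraries, 17.4, 18.4 and 17.7 CPM in SM2 and 17.3, 17.7 and 16.7 CPM in SM4 and rose by 0.40 ± 0.07 (adjusted p = 0.000477) and 0.35 ± 0.07 (adjusted p = 0.00157), with every SM2 and SM4 library above NC. UCA1, AFAP1-AS1, CASC19 and LUCAT1 were lower in both, and CYTOR and MIR4435-2HG in SM4. With SM4 as the reference, CASC19 was called higher in NC (0.37) and in SM2 (0.18). On that reference SM2 was not called for UCA1 (-0.11), AFAP1-AS1 (0.00), LUCAT1 (-0.22), NEAT1 (-0.13), CRNDE (0.16) or HCP5 (0.05). Of 5 lncRNAs of p53, hypoxia and stress responses, 2 were higher and 1 lower in each, and of 3 of interferon and NF-kB responses, HCP5 was higher and LUCAT1 lower in both and MIR3142HG lower in SM4.

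Many of the 293 touch coding genes. Of them, 149 share exon bases with a coding gene, 135 on the opposite and 24 on the same strand, 7 share over 50% of their exon bases, and 110 start within 1000 bases of a coding gene's start on the opposite strand (head to head). The remaining 144 share no exon base, and of these 45 (31.3%) were called in SM2, 22 higher and 23 lower, and 42 (29.2%) in SM4, 16 higher and 26 lower. Those with shared exon bases were called in 18.8% and 20.8%. The head-to-head genes were called in 20, 14 and 11 cases in SM2, in SM4 and between SM4 and SM2, and 10 of the last 11 were lower in SM4. These are 18.2%, 12.7% and 10.0% of 110, beside 24.9%, 24.9% and 15.0% of all members.

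Counts of antisense genes depend on whether strand was used in counting, which was not stated. Of 261 genes with at least 200 exon bases that lie wholly inside exons of an abundant gene on the opposite strand, 253 (96.9%) had 0 counts in every library, and of 207 that lie wholly inside exons of the same strand, 198 (95.7%) did. For these genes at 0, no read on the shared bases was counted to the enclosed gene, on either strand. Whether such reads were counted to the partner was not tested, so values of members with shared exon bases are uncertain. Among 151 pairs of a member and a coding gene that share exon bases on opposite strands, both were called in 5 in SM2, 4 of them the same way, and in 12 in SM4, 9 the same way. Among 110 head-to-head pairs both were called in 4 in SM2 and 1 in SM4, all the same way. LINC00472 with OGFRL1 was a pair that moved in opposite directions in both.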

How the data were processed

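RNA sequencing of OVCAR5 cells gave 9 libraries in the groups NC, SM2 and SM4, taken from the titles. The deposited values are whole-number read counts per gene, which the authors made with HISAT2 and featureCounts (Subread) after trimming with fastp, against GRCh38 (hg38), per the submitters' processing notes. Versions, annotation and strand setting were not given in the sources used here, and the labels (stranded, paired-end) and the study's methods (another kit, single-end) differ in how the libraries were made. Library totals were 44103272 to 63693728 counts. Precision from depth covers counting error only, since no molecular identifiers were used.

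Gene types, positions and exons came from GENCODE v44, which matched 60463 of 60649 identifiers (99.7%) without version, and 0 columns of per-sample values were unused. Counts were filtered with filterByExpr, scaled with TMM factors (0.989 to 1.01) and fitted over all 3 groups with edgeR 4.0.16 (R 4.3.3) quasi-likelihood tests. Calls needed a Benjamini-Hochberg adjusted p below 0.05 over all 19674 genes tested. The test was tried on simulated counts first. DESeq2 1.42.0, with which the study worked, other scalings, no filter, an adjusted p below 0.01, a minimum of 10 CPM, only the libraries compared, a replicate block and leaving out each library were alternatives. Adding GAS5 to the hosts and leaving out SM2 replicate 3 with SM4 replicate 2 were chosen after seeing the data.

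Members, gene lists and markers were chosen with earlier results of these data known. Named were the 8 highest means, the 8 highest and 8 lowest called differences per comparison with NC among members whose libraries did not overlap NC, the 4 highest and 4 lowest between SM4 and SM2, members called in opposite directions, listed lncRNAs, overlapping coding genes and METTL3. The lists were architectural, decoy, snoRNA host, HOX, cancer-associated, stress and interferon lncRNAs, and proteins of paraspeckles, snoRNA particles, nonsense-mediated decay and nuclear decay. Results for 2 other genes are not reported here. Head to head means start sites within 1000 bases on opposite strands. The strand check used genes of at least 200 exon bases beside partners of at least 10000 counts in all. Deviations between replicates used log2 of CPM plus 0.5. Sequences came from GENCODE and RefSeq.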

Additional observations from a re-analysis of the deposited data

Results flagged for a closer look

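CASC8 differed between SM2 and SM4 in its change from NC: it was called higher in one and lower in the other, and SM4 against SM2, which tests that difference itself, gave a log2 difference of -0.55 (edgeR, adjusted p = 0.000121). Every SM4 library was below every NC library and every SM2 library above. Both changes from NC share the NC libraries. The opposite directions hold only with NC as the reference. With SM4 as the reference CASC8 was higher in NC (0.28) and in SM2 (0.55), both called.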

How the results depend on the processing

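With an adjusted p below 0.01 the calls were 41 of 73 in SM2, 46 of 73 in SM4 and 14 of 44 between SM4 and SM2, and for members of at least 10 CPM 45, 46 and 29. Leaving out 1 library gave 51 to 84, 49 to 91 and 23 to 52 calls, the lowest of the last without SM4 replicate 1, and 26 without SM4 replicate 3. With SM2 replicate 3 and SM4 replicate 2 both left out, chosen after seeing the data, they were 86, 96 and 63, the last 41 higher and 22 lower. DESeq2 called 74, 72 and 45, of which 72, 72 and 42 were shared with edgeR.

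The 5 snoRNA hosts called in SM2 became 9 with no filter on low counts, 8 with a replicate block, 3 to 10 on leaving out 1 library, and 10 with both libraries left out. The 8 in SM4 became 5 at an adjusted p below 0.01 and 5 to 11 on leaving out 1 library. The members without shared exon bases fell from 45 to 25 in SM2 and from 42 to 27 in SM4 at an adjusted p below 0.01, and to 27 and 26 at 10 CPM. MALAT1 in SM2 reversed to -0.0945 without SM2 replicate 3 and to -0.0946 with both libraries left out (range on leaving out 1 library, -0.0945 to 0.211). The cause of these changes was not tested, beyond the smaller number of genes or libraries.

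No pairing by replicate number was seen: same-numbered libraries deviated together with r between -0.05 and 0.05 over 9 pairs. Libraries of other numbers gave -0.07 to 0.09. These r values were taken over all genes tested, many with low counts, and cannot exclude a weak pairing. The replicate block gave 79, 77 and 48 calls and kept all 73, 73 and 44. Of 105 called differences of named genes, 68 were called under every alternative, 37 were lost under at least 1 and 0 reversed.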

Other observations

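Calls were also counted by the type of symbol. Of 43 LINC genes, 15 were called in SM2 (34.9%) and 16 in SM4 (37.2%), and of 43 genes known by identifier only, 7 (16.3%) and 10 (23.3%), beside 24.9% of all members in each comparison. Divergent transcripts, whose symbols end in -DT, were called in 10 (26.3%) and 7 (18.4%) of 38, and antisense symbols in 22 and 16 of 100. Between SM4 and SM2, 4 of the 38 divergent transcripts were called, all lower in SM4. The 66 members with a single exon block, for which reads from unspliced RNA cannot be told from reads of the transcript, were called in 18 (27.3%), 13 (19.7%) and 7 (10.6%) cases in the 3 comparisons, the last beside 15.0% of all members. These shares were not tested against each other.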
